A study of Mus musculus with 16 samples.

Results

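The receptor for glial cell line-derived neurotrophic factor (GDNF) and 6 transcription factors that act downstream of it were followed through 12 RNA sequencing libraries of cultured mouse male germline stem cells. The genes were taken by name and are 8 of the 27128 genes in each table. They are the receptor genes Gfra1 and Ret and the factor genes Etv5, Bcl6b, Lhx1, Pou3f1, T and Mycn. All 8 had a mean of at least 1 CPM (read counts over the scaled total of their library) across the 12 libraries, and 14301 genes in all met that filter. T was the lowest of them, with a mean of 2.20 CPM and a median of 1.16 CPM.

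In the testis, GDNF from somatic cells keeps spermatogonial stem cells dividing without differentiating. GDNF binds the co-receptor GFRA1, which sits on the outer membrane through a lipid anchor, and the pair activates RET, a receptor tyrosine kinase. RET passes the signal on through SRC family kinases, the PI3K and AKT pathway, and the RAS and ERK pathway. In cultured stem cells GDNF is known to raise Etv5, Bcl6b, Lhx1 and Pou3f1, while Brachyury, the product of T, is known as a target of ETV5, and Mycn as a gene that drives their growth.

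The cells came from postnatal day 5.5 mice of the line B6;CBA-Tg(Pou5f1-EGFP)2Mnn/J whose EGFP transgene is driven by the promoter of Pou5f1, the gene of OCT4. GFP-positive, KIT-negative germ cells were sorted and grown in serum-free medium, and all 12 cultures received GDNF, bFGF and EGF, so none shows the absence of GDNF. The feeder-removal series had cells on mouse embryonic fibroblasts (day 0) and cells 4 and 9 days after a move to Matrigel, a basement membrane extract. Matrigel density was varied in the second experiment, with cells called epithelial-like at 0.1 µg/cm2 and mesenchymal-like at 10 µg/cm2. For the third, cells grown at 10 µg/cm2 were sorted by GFP into low, mid and high fractions. The inhibitor series had cells on fibroblast feeders treated with DMSO, or for 48 h with 0.5, 1 or 2 µM UNC0638, an inhibitor of the histone methyltransferases G9a and GLP. The labels give no duration for DMSO. Each group was 1 library, so the spread between replicates is unknown for every difference and no test was run.

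Library totals ranged from 4335185 to 12019651 counts. The germ-cell list (11 of its 12 genes found, none at 0 in any library) summed to between 4026 and 6870 CPM, so markers of the labelled cell type were present throughout. Markers of other cells were present in some libraries. The 16 fibroblast markers summed to between 158 and 407 CPM in the feeder-removal, epithelial-like and sorted libraries, but to 8767 CPM in the mesenchymal-like library and to 3705 CPM with DMSO. The 8 macrophage markers summed to 1823, 1664 and 215 CPM in GFP-low, GFP-mid and GFP-high, and to at most 41.5 CPM elsewhere. Sertoli cell markers summed to between 4.39 and 27.7 CPM, with Fshr at 0 counts in all 12 libraries, and Leydig cell markers to between 0.907 and 10.9 CPM, most of it Star, with Cyp17a1, Hsd3b1, Insl3 and Lhcgr at 0 throughout. Peritubular myoid cell markers summed to 257 CPM in the mesenchymal-like library and to 55.6, 67.8 and 14.3 CPM on days 0, 4 and 9. Elsewhere their sum was 3.26 to 26.2 CPM. In bulk RNA, fewer cells of a type and less RNA per cell cannot be told apart.

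Compared per length, as TPM, which also corrects for transcript length, Etv5 and Mycn had the highest median levels of the 8 transcripts. Etv5, which encodes an ETS-domain factor, had the highest TPM level of the 8 in 6 libraries and the second highest in the other 6, with a median of 108 TPM and a range of 75.2 to 269 TPM. Mycn, which encodes a MYC-family factor, ranked first in the 6 libraries where Etv5 did not (median 101 TPM), but only 5th in GFP-low (53.5 TPM), 4th in GFP-mid and 3rd in GFP-high. Ret stood at the third place in 11 libraries with a median of 87.1 TPM, and its co-receptor partner Gfra1 at the fifth place in 11 libraries with a median of 52.3 TPM. Bcl6b, which encodes a zinc-finger repressor, had a median of 77.9 TPM. The LIM-homeodomain gene Lhx1 (median 28.2 TPM) and the POU-domain gene Pou3f1 (median 15.4 TPM) followed. The T-box gene T was last in 11 libraries with a median of 0.905 TPM, and only in GFP-low did another member, Pou3f1 at 3.71 TPM, lie below it.

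The members lie on separate chromosomes except for Bcl6b and Lhx1 (RefSeq gene spans, assembly GRCm38.p6, the mm10 build of the labels). Gfra1 spans chr19:58235581-58455946 and Ret spans chr6:118151748-118197744. Etv5 spans chr16:22381313-22439570, Bcl6b chr11:70224127-70229798 and Lhx1 chr11:84517975-84525534. Pou3f1 spans chr4:124657646-124660655, T spans chr17:8434423-8442496 and Mycn spans chr12:12936093-12941836. RefSeq promoter sequences were matched for 5 of the 8 genes, with 6 promoters in all because Etv5 has 2. The 250 bases before the start are shown for 4 of them: Gfra1 and Etv5, the co-receptor and factor that fell together with rising GFP; Lhx1, the member that differed most between experiments; and Mycn, which went the other way. All 4 lie on the minus strand and are written 5′ to 3′ in the direction of the gene, with capitals marking the letters GGAAG (the core bound by ETS factors such as ETV5) on either strand and GGTGTG (the core bound by T-box factors).
Gfra1, chr19:58455399-58455648, upstream of an inner transcript start of the RefSeq promoter table that lies within the gene's span: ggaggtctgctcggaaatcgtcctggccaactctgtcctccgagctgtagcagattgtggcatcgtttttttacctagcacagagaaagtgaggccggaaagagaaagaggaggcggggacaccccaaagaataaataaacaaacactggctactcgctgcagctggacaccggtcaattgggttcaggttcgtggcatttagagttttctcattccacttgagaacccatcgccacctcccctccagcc
Etv5, its second promoter, chr16:22438369-22438618: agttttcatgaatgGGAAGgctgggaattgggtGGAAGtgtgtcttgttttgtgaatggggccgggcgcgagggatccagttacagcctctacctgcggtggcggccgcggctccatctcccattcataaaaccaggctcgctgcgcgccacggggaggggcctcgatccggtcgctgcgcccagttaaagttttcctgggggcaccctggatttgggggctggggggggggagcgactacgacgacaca
Lhx1, chr11:84525535-84525784: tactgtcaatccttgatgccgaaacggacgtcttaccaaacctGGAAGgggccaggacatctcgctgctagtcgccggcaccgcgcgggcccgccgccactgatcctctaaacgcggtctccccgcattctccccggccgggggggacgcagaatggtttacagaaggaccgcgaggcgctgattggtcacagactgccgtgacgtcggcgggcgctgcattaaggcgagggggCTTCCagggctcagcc
Mycn, chr12:12941837-12942086: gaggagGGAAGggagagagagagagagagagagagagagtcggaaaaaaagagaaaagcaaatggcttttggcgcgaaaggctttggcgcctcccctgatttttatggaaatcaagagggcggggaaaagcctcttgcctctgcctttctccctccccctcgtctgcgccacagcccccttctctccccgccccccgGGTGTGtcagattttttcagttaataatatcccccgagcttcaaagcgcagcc
The second Etv5 promoter, like the Gfra1 window, lies within the gene's span, upstream of an inner start. It holds GGAAG on the forward strand at -236 and -217 from that start, with further matches past it at 3 (forward) and 36 (reverse). Lhx1 holds it at -207 on the forward strand and at -16 on the reverse strand, and Mycn at -244, beside GGTGTG at -53. The T promoter, not shown, holds GGAAG at -152 and -66, both on the reverse strand. The Gfra1 window and the first Etv5 promoter hold no match to any motif searched. That Etv5 promoter, not shown, adjoins the start of the gene's span. Both strands of the 300-base windows were searched for GGAAG, found in 71.4% of all 32851 RefSeq promoters, for its longer form CCGGAAG (8.86%), which contains GGAAG, for ATGCAAAT (POU octamer, 1.74%), for GGTGTG (19.0%) and AGGTGTGA (1.28%), which contains it, for CACGTG (MYC factors, 7.15%) and for TAATTA (LIM homeodomain, 5.29%). A core found in 71.4% of promoters is not particular to these genes, and a match is a description of letters, not a bound site.

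**Figure D1:**
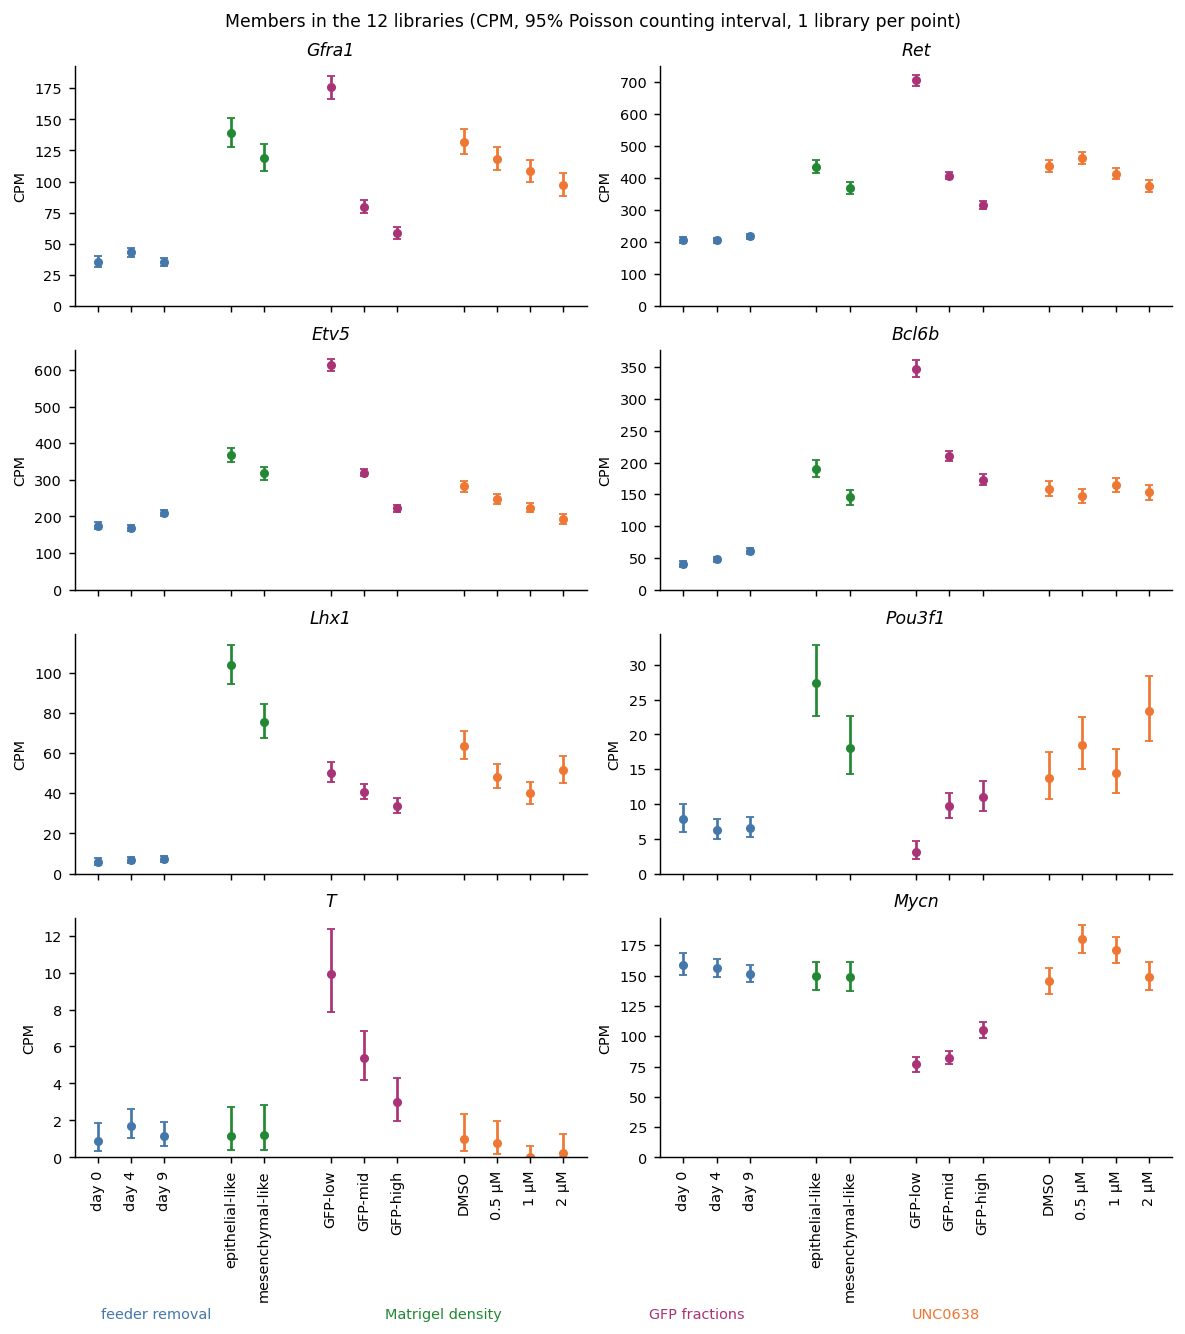
Level of each of the 8 genes in the 12 libraries (y axis, CPM from 0; x axis, libraries, coloured by experiment; bars, 95% Poisson counting intervals; 1 library per point). Gfra1, Ret, Etv5 and Bcl6b peak in GFP-low, at 176, 705, 614 and 348 CPM, whereas Mycn is lowest there, at 76.9 CPM.

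The question of the feeder-removal series is what a move from feeders to Matrigel does to the cells. The receptor genes held their level through it. Gfra1 was at 35.5 CPM at day 0, 42.9 at day 4 and 35.2 at day 9, and Ret at 205, 205 and 217 CPM. All 3 libraries of each gene thus lay close together, with Gfra1 slightly higher at day 4. The day 9 log2 ratio to day 0 (computed on CPM + 1, with a 95% counting interval) was -0.01 (-0.23 to 0.21) for Gfra1 and 0.08 (-0.01 to 0.17) for Ret. Among the factors, Bcl6b was higher at each time, at 40.2, 47.6 and 60.3 CPM, with a day 9 log2 ratio of 0.57 (0.39 to 0.78). Etv5 was at 174, 169 and 210 CPM, so only day 9 stood above the others (0.27, 0.18 to 0.37). Mycn was level at 159, 156 and 152 CPM.

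Lhx1 was low throughout the feeder-removal series at 5.83, 6.69 and 7.08 CPM, as were Pou3f1 at 7.78, 6.26 and 6.59 CPM and T at 0.907, 1.69 and 1.14 CPM. T rested on 7, 20 and 14 counts. No member differed 2-fold from day 0 at day 4, where 1.25% of all genes tested were at least 2-fold higher and 1.03% at least 2-fold lower. The same held at day 9, where 1.62% were higher and 0.979% lower. The members' median log2 ratio was 0.08 at day 4 and 0.12 at day 9, against 0.03 and 0.02 for all genes tested. Both times were compared with the same day 0 library. Bcl6b and Lhx1 had rising levels in the order of the days, as 19.8% of all genes had, and Mycn falling ones, as 17.9% had; the differences between neighbouring days of Lhx1 and of Mycn lay within their counting intervals.

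The density experiment asks how cells on sparse Matrigel differ from those on dense Matrigel. Of the 8 members, 6 were lower in the mesenchymal-like culture with intervals below 0, each by less than 2-fold. Without regard to intervals 7 members were lower, as were 54.4% of all genes tested. The share of all genes with intervals below 0 was not computed. Gfra1 was at 139 CPM in the epithelial-like and 119 CPM in the mesenchymal-like library (log2 ratio -0.22, -0.40 to -0.05), and Ret at 435 and 369 CPM (-0.24, -0.34 to -0.14). Among the target genes, Etv5 was at 368 and 318 CPM (-0.21, -0.32 to -0.11) and Bcl6b at 190 and 145 CPM (-0.39, -0.55 to -0.24). The epithelial-like library held the highest Lhx1 and Pou3f1 of all 12, with Lhx1 at 104 and 75.8 CPM (-0.45, -0.67 to -0.24) and Pou3f1 at 27.5 and 18.1 CPM (-0.57, -1.04 to -0.17). Mycn was at 149.5 and 149 CPM, and T, on 5 counts in each library, was at 1.17 and 1.21 CPM.

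None of the members passed 2-fold between the densities, where 10.7% of all genes were at least 2-fold higher in the mesenchymal-like library and 1.78% lower. The members' median was -0.23, against -0.06 for all genes tested. The germ-cell list moved with them, with a median of -0.36 and 10 of its 11 genes lower. The 16 fibroblast markers summed to 382 CPM in the epithelial-like and 8767 CPM in the mesenchymal-like library, and their part in the difference was not tested. When the ratios were set to a germ-cell median of 0, Gfra1, Ret and Etv5 turned to 0.14, 0.12 and 0.15, and Bcl6b, Lhx1 and Pou3f1 came to -0.03, -0.09 and -0.21. Mycn and T came to 0.36 and 0.38. This scaling moved all genes alike, with their median at 0.31, so that Gfra1, Ret and Etv5 were below the median of all genes on both scales, while the sign of their ratios differed. Among other genes of the pathway, Ncam1, which encodes an alternative receptor for GDNF, went from 11.7 to 202 CPM.

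**Figure D2:**
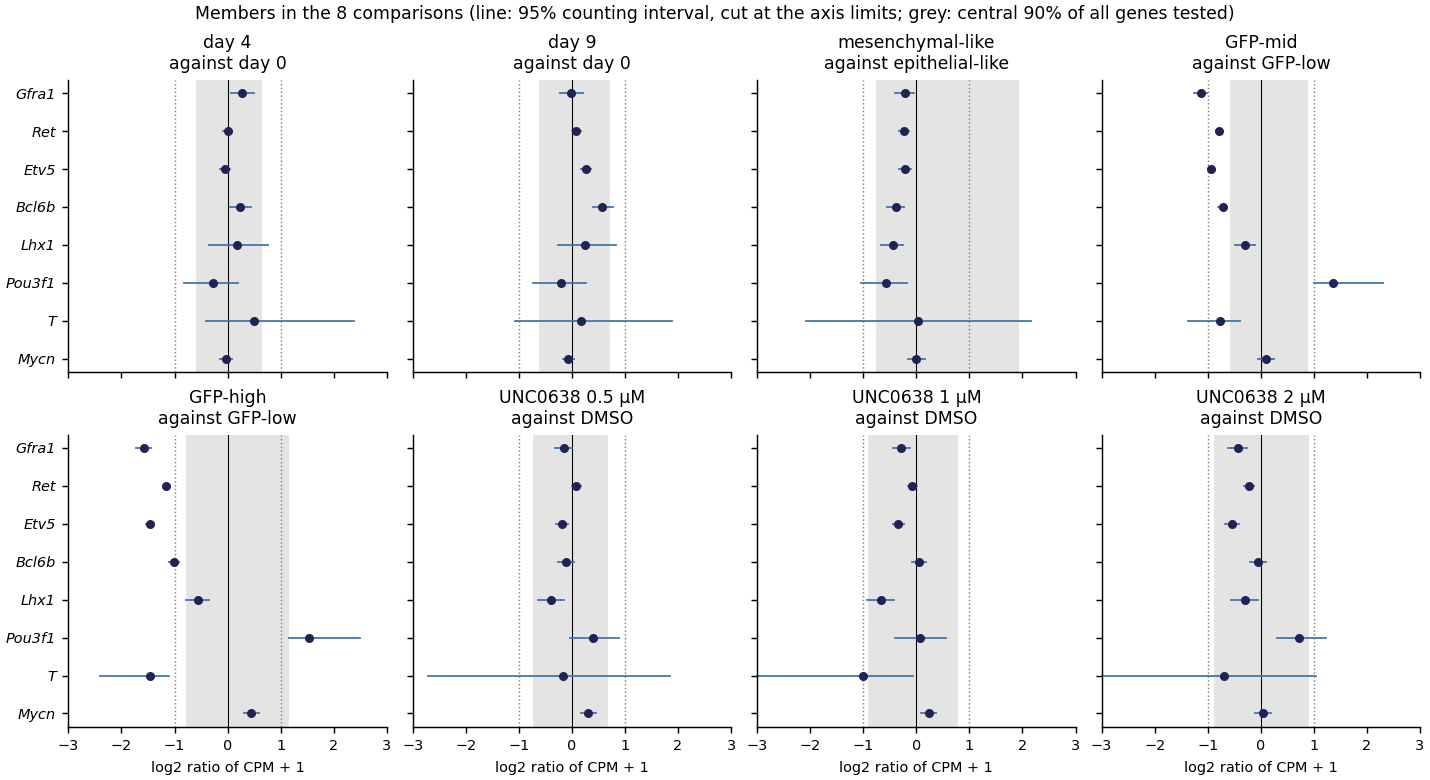
Log2 ratio of CPM + 1 for each of the 8 genes (y axis) in the 8 comparisons (x axis; 1 library against 1; lines, 95% counting intervals; dotted lines, 2-fold; grey band, central 90% of all 14301 genes tested). Points pass the dotted lines only in the 2 GFP panels, as for Gfra1 at -1.13 and -1.57.

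The sorted series asks what distinguishes cells with different activity of the Oct4 reporter. Both receptor genes fell as GFP rose. Gfra1 was at 176 CPM in GFP-low, 79.9 in GFP-mid and 58.5 in GFP-high, and Ret at 705, 408 and 316 CPM. In each gene GFP-low stood well above the others, and counting intervals separated all 3 fractions. The GFP-mid log2 ratios to GFP-low were -1.13 (-1.26 to -1.02) for Gfra1 and -0.79 (-0.84 to -0.74) for Ret, and those of GFP-high were -1.57 and -1.16. Gfra1 in GFP-mid came to -0.96 with the germ-cell median at 0, short of 2-fold.

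Among the factors, Etv5 went from 614 to 319 and 222 CPM, a log2 ratio of -0.94 in GFP-mid and -1.46 in GFP-high. Bcl6b went from 348 to 211 and 173 CPM (-0.72, and -1.01 with an interval of -1.10 to -0.92, at the 2-fold line). T had its highest levels of all 12 libraries here, with 9.91, 5.38 and 2.97 CPM on 79, 68 and 28 counts (-1.46 in GFP-high, -2.41 to -1.10). Lhx1 was lower by less, going from 50.3 to 40.8 and 33.8 CPM (-0.56 in GFP-high, -0.79 to -0.36), and did not reach 2-fold.

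The other 2 members were higher with more GFP. Pou3f1 was at 3.13 CPM in GFP-low, its lowest level of the 12 libraries, and at 9.66 and 10.9 CPM in GFP-mid and GFP-high. Its log2 ratios to GFP-low were 1.37 (0.99 to 2.31) and 1.53 (1.16 to 2.50), and GFP-mid and GFP-high did not differ beyond counting error. Mycn was at 76.9, 82.3 and 105 CPM, with GFP-low and GFP-mid alike within counting error and GFP-high above them (0.44, 0.30 to 0.60).

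In GFP-high against GFP-low, 5 members (Gfra1, Ret, Etv5, Bcl6b and T) were at least 2-fold lower and 1 (Pou3f1) at least 2-fold higher. T met the filter with a mean of 2.20 CPM that came mostly from these fractions, as it lay at 1.69 CPM or less in the other libraries. Bcl6b was short of 2-fold under 5 of 8 other settings, at log2 ratios between -0.999 and -0.851. With a pseudocount of 5, T (-0.90) and Pou3f1 (0.97) were short of it as well, which left 3 members. Over all genes tested, 2.59% were lower and 6.94% higher. In GFP-mid against GFP-low, Gfra1 was lower and Pou3f1 higher, against 0.685% and 3.38% of all genes. With a pseudocount of 5, Pou3f1 stood at 0.85 in GFP-mid, short of 2-fold. The members' median was -0.75 in GFP-mid and -1.08 in GFP-high, against -0.01 and -0.02 for all genes, and both comparisons share the GFP-low library. Without GFP-low, no member differed 2-fold between GFP-high and GFP-mid, where 1.32% of all genes were higher and 1.52% lower. Between those 2 fractions Gfra1, Ret, Etv5, Bcl6b, Lhx1 and T were lower with intervals below 0, Gfra1 by a log2 ratio of -0.44 (-0.60 to -0.30). Of all genes tested 50.3% were lower there by any amount, and the share with intervals below 0 was not computed. Over the 3 fractions 6 members had falling levels and 2 rising ones, as 26.9% and 24.5% of all genes had.

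**Figure D3:**
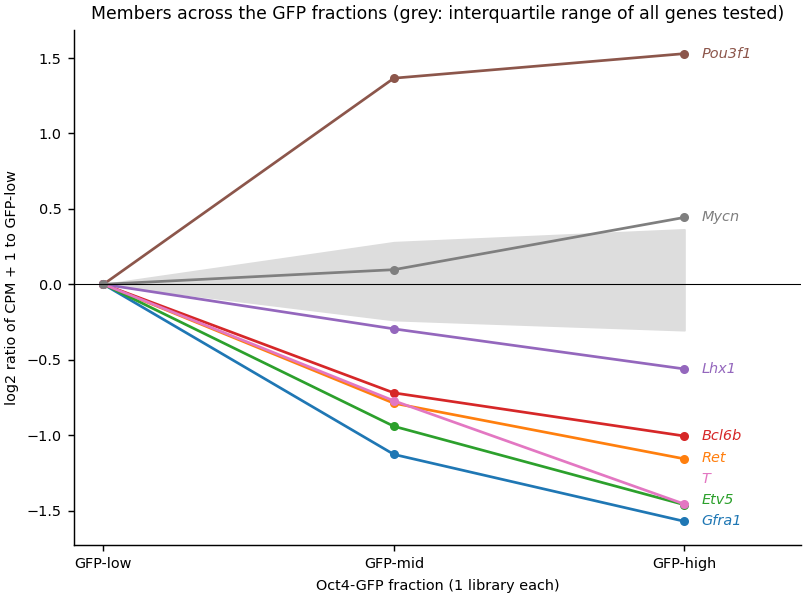
Log2 ratio of CPM + 1 to GFP-low (y axis) in the 3 GFP fractions (x axis, 1 library each) for the 8 genes, with the interquartile range of all genes tested in grey. Gfra1, Etv5, T, Ret and Bcl6b end between -1.57 and -1.01, Lhx1 at -0.56, Mycn at 0.44 and Pou3f1 at 1.53.

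Other cells' markers differed between the fractions. All 8 macrophage markers were at least 2-fold lower in GFP-high than in GFP-low. Between GFP-low and GFP-mid their sum went from 1823 to 1664 CPM, with none of the 8 past 2-fold. Fibroblast markers summed to 158, 186 and 300 CPM in the 3 fractions, and 7 of the 15 tested were at least 2-fold higher in GFP-high than in GFP-low (median 0.66). Germ-cell genes had a median log2 ratio of -0.17 in GFP-mid and -0.12 in GFP-high, and markers of differentiating spermatogonia summed to 321, 448 and 611 CPM. The part of these differences in the members' ratios was not tested.

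The unsorted culture at the same Matrigel density gives a second view of such cells. For Gfra1, Ret and Etv5 its level lay inside the range of the 3 fractions, at 119, 369 and 318 CPM. The other 5 members lay outside it. Lhx1 at 75.8 CPM, Pou3f1 at 18.1 CPM and Mycn at 149 CPM were above every fraction, and Bcl6b at 145 CPM and T at 1.21 CPM were below. The sort, the experiment and the 8767 CPM of fibroblast markers in the unsorted library cannot be told apart as sources of that gap.

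The inhibitor series asks what blocking G9a does. On the CPM + 1 scale no member passed 2-fold at any dose, although T, on 5 counts or fewer, was too low for this to be read and passed it under some other settings. Gfra1 and Etv5 were lower at each successive dose. Gfra1 was at 132 CPM with DMSO and at 118, 108 and 97.4 CPM with 0.5, 1 and 2 µM, and Etv5 at 282, 246, 223 and 194 CPM. The ratios to DMSO were -0.16, -0.29 and -0.44 (-0.62 to -0.26 at 2 µM) for Gfra1 and -0.19, -0.34 and -0.54 (-0.67 to -0.42 at 2 µM) for Etv5. For Gfra1 the steps between neighbouring doses lay within counting error; those of Etv5 did not. Over the 4 libraries 7.81% of all genes had falling levels and 6.5% rising ones. With the germ-cell median at 0, which put the median of all genes at -0.14, -0.08 and 0.13, the ratios to DMSO were -0.28, -0.36 and -0.29 for Gfra1 and -0.32, -0.42 and -0.39 for Etv5, below 0 at each dose but not lowest at 2 µM.

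The remaining members did not follow the dose. Ret was at 437, 462, 413 and 375 CPM, and only at 2 µM did its interval lie below 0 (-0.22, -0.31 to -0.13). Bcl6b was level at 159, 147, 164 and 153 CPM. Lhx1 was below DMSO at every dose, at 63.9, 48.3, 40.0 and 51.5 CPM, and lowest at 1 µM (-0.66, -0.93 to -0.43).

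Pou3f1 was at 13.8, 18.5, 14.5 and 23.4 CPM, highest at 2 µM (0.72, 0.31 to 1.22). Mycn was at 145, 179.9, 171 and 149 CPM, above DMSO at 0.5 µM (0.31, 0.17 to 0.45) and 1 µM (0.23, 0.09 to 0.37). T was close to its limit of detection, with 5, 4, 0 and 1 counts. At 1 µM its counting interval against DMSO had no lower bound and reached up to -0.07, and at 2 µM its log2 ratio was -0.70 (-7.69 to 1.04). Of all genes tested, 1.58% were at least 2-fold higher and 2.13% lower at 0.5 µM, 2.59% and 4.12% at 1 µM, and 3.42% and 3.59% at 2 µM. The members' medians were -0.13, -0.18 and -0.26, against -0.01, -0.00 and -0.02 for all genes, and all 3 doses share the DMSO library. Fibroblast markers summed to 3705, 1333, 550 and 716 CPM in DMSO and the 3 doses, and their part in these ratios was not tested.

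A ratio within a library needs no scaling between libraries. Per 100 Ret counts, Etv5 had 64.6 counts with DMSO (60.4 to 69.1) and 53.4, 54.0 and 51.6 with the 3 doses (47.5 to 56.1 at 2 µM). Between the doses the intervals of this ratio overlapped, as both genes had lower CPM at 1 than at 0.5 µM and at 2 than at 1 µM. In the fractions Etv5 went from 87.1 to 78.3 and 70.4 per 100 Ret counts as GFP rose, and Bcl6b was at 49.3, 51.7 and 54.7. At the 2 Matrigel densities Etv5 was at 84.5 and 85.9 per 100 Ret counts, with overlapping intervals. Mycn went from 10.9 to 20.2 and 33.2 per 100 Ret counts over the same fractions.

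**Figure D4:**
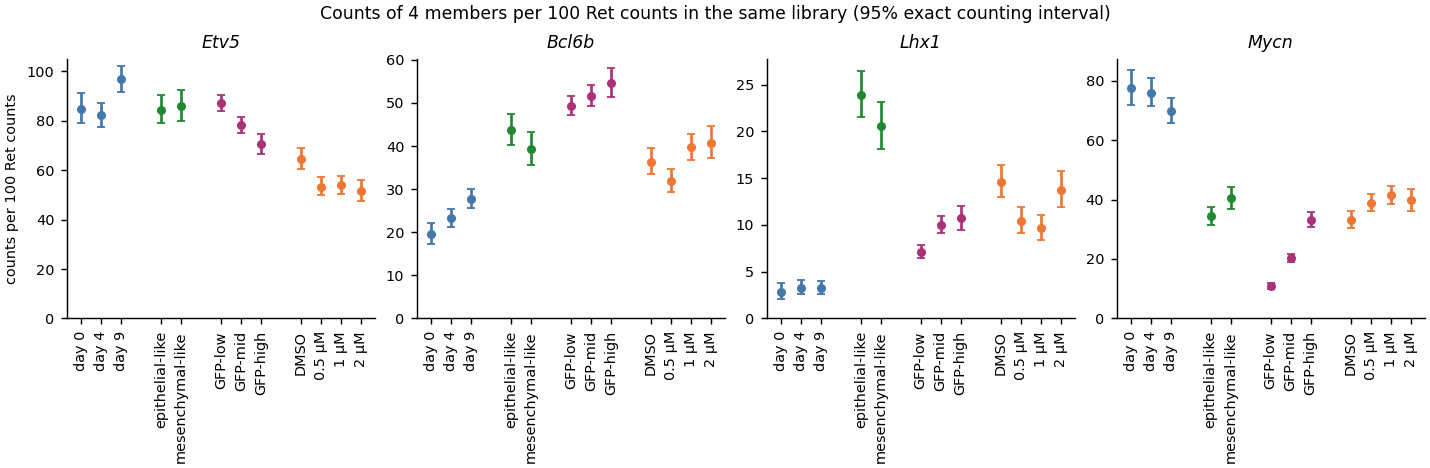
Counts of Etv5, Bcl6b, Lhx1 and Mycn per 100 Ret counts (y axis, from 0) in the 12 libraries (x axis, coloured by experiment as for the levels; bars, 95% exact counting intervals). Lhx1 stands at 2.84 to 3.26 in the feeder-removal libraries and at 23.9 in the epithelial-like library.

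The largest differences in Lhx1, Bcl6b and Gfra1 lay between experiments. Day 0 and DMSO are both cells on feeders, and this pair was compared after the levels had been seen. Lhx1 had 5.83 CPM on day 0 but 63.9 CPM in the DMSO library (a log2 difference of 3.25), Bcl6b 40.2 and 159 CPM (1.96, 1.79 to 2.18), Gfra1 35.5 and 132 CPM (1.87, 1.69 to 2.10) and Ret 205 and 437 CPM (1.09, 0.99 to 1.18). These 4 of the 8 members were at least 2-fold higher with DMSO, and none lower, against 12.2% and 7.22% of all genes tested. Etv5 (0.69) and Pou3f1 (0.75) were higher by less, while Mycn (-0.13, -0.27 to 0.00) and T (0.07) were not. With the germ-cell median at 0, Etv5 at 1.15 and Pou3f1 at 1.21 also passed 2-fold, but this scaling lifted all genes alike: their median came to 0.46, and 3498 of 14301 were at least 2-fold higher, against 1743 before. Fibroblast markers summed to 382 CPM at day 0 and 3705 CPM with DMSO, and the experiment and whatever else differed between its cultures cannot be told apart.

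Over all 12 libraries, Lhx1 had the widest range of the members with counts in every library, 17.8-fold between its lowest and highest, and Mycn the narrowest at 2.34-fold. The order of the libraries was shared in part. The 3 feeder-removal libraries were the lowest for Gfra1, Ret, Bcl6b and Lhx1, and GFP-low the highest for Gfra1, Ret, Etv5, Bcl6b and T. For Gfra1 the epithelial-like, DMSO, mesenchymal-like, 0.5 µM, 1 µM and 2 µM libraries, in that order from 139 to 97.4 CPM, did not differ from their neighbours beyond counting error. For Ret the same was true from 0.5 µM through DMSO, epithelial-like and 1 µM to GFP-mid, from 462 to 408 CPM. For Bcl6b it was true from GFP-high through 1 µM, DMSO, 2 µM and 0.5 µM to the mesenchymal-like library, from 173 to 145 CPM. For Mycn the 9 libraries outside the sorted series formed such a run, from 179.9 to 145 CPM. For Pou3f1 it reached from the epithelial-like library at 27.5 CPM down to day 4 at 6.26 CPM, and GFP-low alone stood apart. For T it held from GFP-high downwards. For Etv5 such runs were shorter, joining GFP-mid with the mesenchymal-like library, 1 µM with GFP-high and day 9, and day 0 with day 4. For Lhx1 they joined 2 µM, GFP-low and 0.5 µM, then GFP-mid, 1 µM and GFP-high, and last the 3 feeder-removal libraries.

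Other genes of the pathway came from lists of ligands and co-receptors, relay proteins, feedback genes of the ERK pathway, and further GDNF-responsive or self-renewal genes. The last list also held Kit, Stra8 and Sohlh1, which are among the markers of differentiating spermatogonia. Gdnf itself reached at most 2.66 CPM, and the ligand gene Pspn and the receptor gene Gfral had 0 counts in all 12 libraries. Gfra2, the co-receptor gene for neurturin, stayed at or below 1.34 TPM and Gfra4 at or below 3.83 TPM. Gfra3, the co-receptor gene for artemin, had 20.2, 17.7 and 20.02 TPM in the feeder-removal series, a level close to that of Gfra1 there (18.7, 22.8 and 20.2 TPM). In the epithelial-like library Gfra1 had 66.6 TPM and Gfra3 had 4.66 TPM, and in GFP-low 92.0 and 7.22 TPM. In GFP-high against GFP-low, Gfra3 went from 7.90 to 19.11 CPM and the ligand gene Nrtn from 2.13 to 15.6 CPM, both opposite to Gfra1. They were the 2 of 6 ligand and co-receptor genes tested that passed 2-fold.

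The counts of list genes in GFP-high against GFP-low stand beside 6.94% of all genes higher and 2.59% lower. Of 29 relay genes tested, 1 was at least 2-fold higher (Hras1, 3.13 to 9.55 CPM) and 1 lower (Lyn, 8.15 to 1.59 CPM), with a median of -0.06. Lyn was at 6.18 CPM in GFP-mid. Macrophage markers summed to 1823, 1664 and 215 CPM in GFP-low, GFP-mid and GFP-high, and their part in the Lyn ratio was not tested. Of 12 ERK feedback and response genes, 3 were lower and none higher, with a median of -0.41. They were Spry4, which encodes an inhibitor of the pathway (133 to 30.0 CPM), and the phosphatase genes Dusp6 (364 to 135 CPM) and Dusp4 (26.1 to 7.22 CPM). Of the 17 tested genes of the further list, which includes these markers of differentiation, 4 were lower and 5 higher. The 4 were Plvap, a gene of an endothelial membrane protein also used as a stem cell marker (86.8 to 20.5 CPM), Egr2, an immediate early gene (183 to 57.3 CPM), Nanos2, which keeps the stem cell state (26.3 to 10.9 CPM), and Tspan8 (24.2 to 10.6 CPM). The 5 were Foxo1 (75.4 to 372 CPM), Id4 (6.65 to 24.2 CPM), Tspan33 (7.02 to 19.3 CPM), and Kit (62.3 to 130 CPM) and Stra8 (67.2 to 179 CPM), which mark the start of differentiation.

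With UNC0638, 2.13%, 4.12% and 3.59% of all genes were at least 2-fold lower at 0.5, 1 and 2 µM, and 1.58%, 2.59% and 3.42% higher. Of the 17 further genes, 2, 2 and 1 were lower and none higher, with Plvap lower at each dose, from 59.3 to 21.4, 12.2 and 9.16 CPM. Of the 29 relay genes, 1, 1 and 3 were lower and 1 was higher, at 2 µM. Of the 6 tested genes of GDNF family ligands and co-receptors, Gfra2 was lower at 0.5 µM alone, on 3 against 13 counts, Ncam1 was lower at 1 and 2 µM (27.1 to 9.25 and 10.996 CPM), and Nrtn, which encodes the ligand neurturin, was higher at 1 and 2 µM, from 10.4 to 35.8 and 21.99 CPM. Of the 12 ERK genes, 1 passed 2-fold at 2 µM (Ier3, 26.6 to 55.7 CPM) and none at the lower doses, and Dusp6 went from 296 to 268, 213 and 192 CPM. Between the densities, 4 of 29 relay genes were at least 2-fold higher in the mesenchymal-like library, a share near the 10.7% of all genes. Among them, Grb10 went from 4.93 to 71.2 CPM. Fibroblast markers summed to 382 and 8767 CPM at the densities, and to 3705, 550 and 716 CPM with DMSO, 1 and 2 µM. Their part in the ratios of Ncam1 and Grb10 was not tested. Between day 0 and DMSO, 6 of the 12 ERK genes, 6 of the 29 relay genes and 6 of the 17 further genes were at least 2-fold higher with DMSO, beside 12.2% of all genes. Among the ERK genes were Etv4 (7.13 to 35.3 CPM), Spry4 (18.4 to 65.9 CPM) and Dusp6 (114 to 296 CPM), and the median log2 ratio of the 12 was 1.10.

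**Figure D5:**
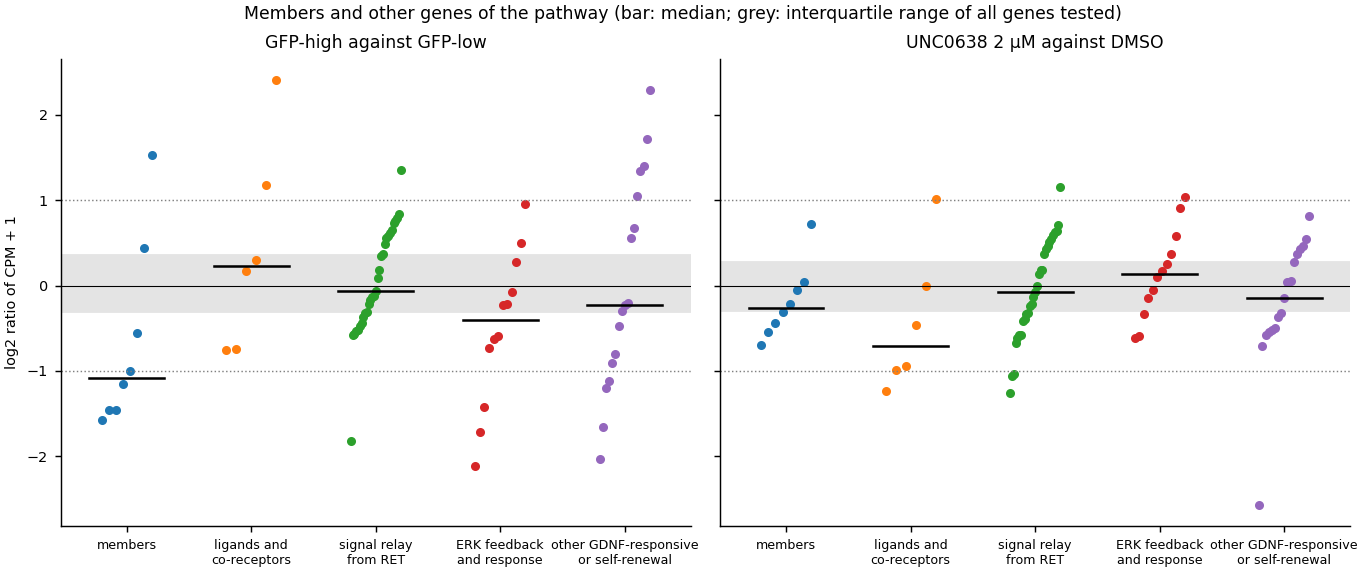
Log2 ratio of CPM + 1 (y axis) for the 8 members and the genes of 4 pathway lists (x axis; 1 point per gene tested; bars, medians; dotted lines, 2-fold; grey band, interquartile range of all genes tested) in GFP-high against GFP-low and in 2 µM UNC0638 against DMSO. The members' median is -1.08 in the first panel and -0.26 in the second, and that of the relay genes is -0.06 and -0.08.

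For each member with a mean of at least 10 CPM, the 9598 genes above that mean were ranked by the root mean square difference of log2(CPM + 1) over the 12 libraries, each gene centred within its experiment. This likeness is a description without a test. Centring removes the differences between experiments, and the widest that remain for Gfra1 and Etv5 are those between the GFP fractions. The log2 ratio of GFP-high to GFP-low was -1.57 for Gfra1 and -1.46 for Etv5. For the 3 genes nearest to Etv5 it lay between -1.66 and -1.18. For Etv5 the nearest genes were Egr2 (0.08), Dusp6 (0.09) and Lphn2 (0.10), against a spread of Etv5's own pattern of 0.33. The first 2 belong to the pathway lists, and of the other members Ret ranked 5th, Gfra1 15th, Bcl6b 65th and Lhx1 557th. For Gfra1 they were Rasl11a (0.08), A530089I17Rik (0.11) and Etv5 (0.13), with Ret 4th, Bcl6b 139th and Lhx1 730th, beside an own spread of 0.35. Mycn and Pou3f1 were far down both orders, at 6950th and 9216th for Gfra1.

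Ret itself, with an own spread of 0.26, was nearest to Gm237 (0.06), Mbnl3 (0.08) and Pdk1 (0.08), with Etv5 at 29th and Gfra1 at 80th. Bcl6b (own spread 0.26) was nearest to Pdk1 (0.09), Hhex (0.10) and Tubg2 (0.10). The nearest genes of Lhx1 were Taz (0.08), Il17rd (0.10) and Atf1 (0.10), and its own spread was 0.21. Those of Pou3f1 were Thoc4 (0.14), Rkhd1 (0.15) and Jag2 (0.16), beside the largest own spread, 0.40. Mycn, with an own spread of 0.12, had Adat1, Anxa11 and Dusp14 nearest, the last at 0.07. T, with a mean under 10 CPM, was not ranked.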

How the data were processed

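RNA was extracted from each culture and copied into amplified full-length cDNA with a Smart-seq2 variant, per the labels' protocols. The submitters' processing notes name Trim Galore, RSEM and the build mm10; aligner and annotation release are not given in the sources used here. The authors deposited 1 table per library with RSEM's expected counts, TPM (scaled by gene length and library) and FPKM, per the file headers. The deposited FPKM was not used in any result, and deposited TPM served to compare genes. Between 8.52% and 10.7% of genes had an expected count with any decimal part. The 4 ATAC libraries were not analysed here.

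Expected counts were rounded and scaled to CPM with TMM factors (0.912 to 1.07) from edgeR 4.0.16 in R 4.3.3. Testing was limited to genes averaging 1 CPM or more. A ratio is log2 of CPM + 1, which understates changes of low genes, and a gene is called at 2-fold or more. Intervals are 95% Poisson intervals of a level or Clopper-Pearson intervals on how the reads of a pair of libraries divide, computed without the pseudocount; amplified reads are not independent molecules, so they cover counting error only. The floor of 3 counts was 0.238 to 0.724 CPM. Named genes are the members, any gene of the lists, and the 3 nearest patterns of each member. Members and lists were chosen with earlier results of these data known; the day 0 and DMSO pair was added after seeing the levels. The steps were tested on simulated counts. Alternatives were DESeq2 1.42.0 size factors, total counts, a germ-cell list median set to 0, deposited TPM, pseudocounts of 0.1 and 5, no filter and a filter at 10 CPM. The scripts ran on Python 3.11.15 (scipy 1.17.1, numpy 2.4.6, matplotlib 3.10.9, pandas 2.3.3), and positions and promoters are from RefSeq, GRCm38.p6.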

Additional observations from a re-analysis of the deposited data

How the results depend on the processing

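Across the 80 counts of members past 2-fold (10 comparisons, 8 alternatives), 73 stayed within 1.5 times the value given and 7 did not. GFP-mid against GFP-low went from 2 members to 1 with the germ-cell median at 0, where Gfra1 fell short, and to 1 with a pseudocount of 5, where Pou3f1 did. GFP-high against GFP-low went from 6 to 3 with a pseudocount of 5, leaving Gfra1, Ret and Etv5; under deposited TPM, Bcl6b stood at -0.85. At 1 µM the count went from 0 to 1 (T, on 0 against 5 counts) with DESeq2 size factors, with the germ-cell median at 0 and with a pseudocount of 0.1; at 2 µM it went from 0 to 1 (T) with a pseudocount of 0.1. Among genes, no ratio past 2-fold changed sign. Over all genes tested, pseudocounts moved the count most: 2-fold differences between GFP-high and GFP-low ranged from 3.64% of genes (pseudocount 5) to 15.0% (pseudocount 0.1), against 9.54%, and day 4 from 0.119% to 7.21%, against 2.28%. Centring on germ cells moved the share of calls that were higher from 62.4% to 82.0% at day 9, from 85.7% to 96.8% between densities, from 83.2% to 94.0% in GFP-mid, from 42.6% to 26.2% at 0.5 µM, from 48.8% to 68.2% at 2 µM and from 62.8% to 91.2% for DMSO against day 0, where the median ratio of all genes became 0.16, 0.31, 0.15, -0.14, 0.13 and 0.46 in turn, against -0.06 to 0.02 before. T, on 0 to 20 counts outside the sorted series, is limited by depth. No paired analysis was possible because each RNA group had 1 library and the replicate numbers of the labels belong to ATAC libraries, which were not analysed here.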
